A study of Mus musculus with 36 samples.

Results

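The 31 genes described here encode subunits of the receptors for glutamate and GABA, the main excitatory and inhibitory transmitters of the brain. They were chosen by name and are 31 of the 53274 genes that the 3 annotations used in the series have in common. They comprise 4 AMPA (*Gria1* to *Gria4*), 5 kainate (*Grik1* to *Grik5*), 5 NMDA (*Grin1*, *Grin2a*, *Grin2b*, *Grin2d* and *Grin3a*) and 6 metabotropic glutamate receptor genes (*Grm2*, *Grm3*, *Grm4*, *Grm5*, *Grm7* and *Grm8*). The others are 9 GABAA (*Gabra2* to *Gabra5*, *Gabrb1*, *Gabrb2*, *Gabrg1*, *Gabrg3* and *Gabrd*) and 2 GABAB receptor genes (*Gabbr1* and *Gabbr2*). Sequencing of mRNA gave counts per gene for the cerebellum (Cb) and for the combined forebrain and midbrain (F/M) of *Tpp1*-/- mice, in which gene targeting disrupts the lysosomal peptidase TPP1, and of unaffected siblings used as controls. Loss of TPP1 causes late infantile neuronal ceroid lipofuscinosis, a lysosomal storage disease of the brain. The mice came from crosses of heterozygotes and were 1, 2 or 3 months old, with 3 control and 3 *Tpp1*-/- libraries per region and age, 36 in all. Control replicate 3 of 1 month was *Tpp1*+/- in both regions and every other control was labelled wild type. Within each genotype the replicates were female, male and male at 1 month, all male at 2 months, and male, male and female at 3 months. The comparisons ask how the 2 regions differ in receptor subunits, and whether loss of TPP1 shifts these before and during disease. All 31 genes passed the filter on low counts at every age.

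AMPA receptors carry most fast excitatory transmission, kainate receptors modulate it, and NMDA receptors admit calcium when glutamate and depolarization coincide. Metabotropic glutamate receptors and GABAB receptors signal through G proteins, while GABAA receptors are chloride channels built from alpha, beta and gamma or delta subunits. Each channel is an assembly of subunits, and the subunit mixture sets its kinetics, drug sensitivity and place at or outside the synapse. The cerebellar cortex is known for a mixture of its own, since its granule cells use the alpha6 and delta GABAA subunits and the GluN2C NMDA subunit.

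Libraries held 10609896 to 29942380 reads counted to genes (median 21049839). Levels are given as CPM, that is, counts scaled to a total of 1000000 and adjusted between libraries of an age, and levels of different genes are compared as CPM per kilobase of exon (RPKM). *Tpp1* itself measured 42.1 to 111 CPM in the 18 control and 16.1 to 27.8 CPM in the 18 *Tpp1*-/- libraries, without overlap. Marker genes followed the dissection labels. The mean log2 CPM of 8 granule cell genes was 8.79 to 9.27 in Cb and 3.06 to 4.003 in F/M, and that of 12 cortex and striatum genes was 5.87 to 6.18 in F/M and 0.473 to 1.59 in Cb. Some libraries stood apart over the 31 genes. In *Tpp1*-/- replicate 1 of the 3-month Cb, 8 of them lay over 0.5 log2 below the mean of the other 2 replicates, led by *Gabrb2* (−1.74) and *Grin2b* (−1.39). In control replicate 3 of the 3-month Cb, 5 were lower by that much, among them *Gabra5* (−1.12) and *Grm5* (−0.96), and 5 were higher. In *Tpp1*-/- replicate 1 of the 1-month Cb, 5 were lower, and in control replicate 2 of the 2-month F/M 3 were. Leaving out any 1 of these 4 libraries changed no call of a genotype effect or of its difference between regions within its age.

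The 2 regions of control mice differed in most subunits, and most were lower in Cb. The test was edgeR's quasi-likelihood test, and a gene was called when its p, adjusted over all genes by the Benjamini-Hochberg method, was under 0.1 and its fold change at least 1.5. At 1 month 20 of the 31 were called lower and 4 higher in Cb, against 21.1% and 15.8% of all genes tested. At 2 months 17 were lower and 5 higher (background 21.9% and 17.4%), and at 3 months 20 and 3 (19.9% and 17.8%). The median log2 difference, Cb over F/M, was −0.82, −0.70 and −0.88 at the 3 ages, where the median over all genes was 0.02, −0.01 and 0.04. Calls repeated across ages, each of which had its own mice: 17 members were higher in F/M at all 3 ages and 3 (*Gria4*, *Grm4* and *Gabrd*) were higher in Cb at all 3. The share of all genes called at all 3 ages was not counted, so these numbers have no background beside them. Another 5 (*Gria2*, *Grik2*, *Grik3*, *Gabrb2* and *Gabrg1*) were called at some ages, and 6 (*Gria1*, *Grik1*, *Grin1*, *Grin2d*, *Gabbr1* and *Gabbr2*) at none. In bulk tissue, a different number of cells of a type and a different RNA content per cell cannot be told apart, here and in every comparison that follows. Without control replicate 3 of the 3-month Cb the count at 3 months was 26 in place of 23, with *Grik2*, *Grin1* and *Gabbr2* added at just over 1.5-fold. Without control replicate 2 of the 2-month F/M it was 24 in place of 22, with *Gria2* (−0.61, adjusted p = 1.9e-07) and *Grik3* (−0.66, adjusted p = 2.87e-07) added. Per length, the members ran at 3 months from *Grm8* (1.95 ± 0.179 RPKM) to *Gabbr1* (111 ± 1.58 RPKM) in F/M and from *Gabrg3* (0.489 ± 0.141 RPKM) to *Gria4* (105 ± 0.848 RPKM) in Cb.

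**Figure D1:**
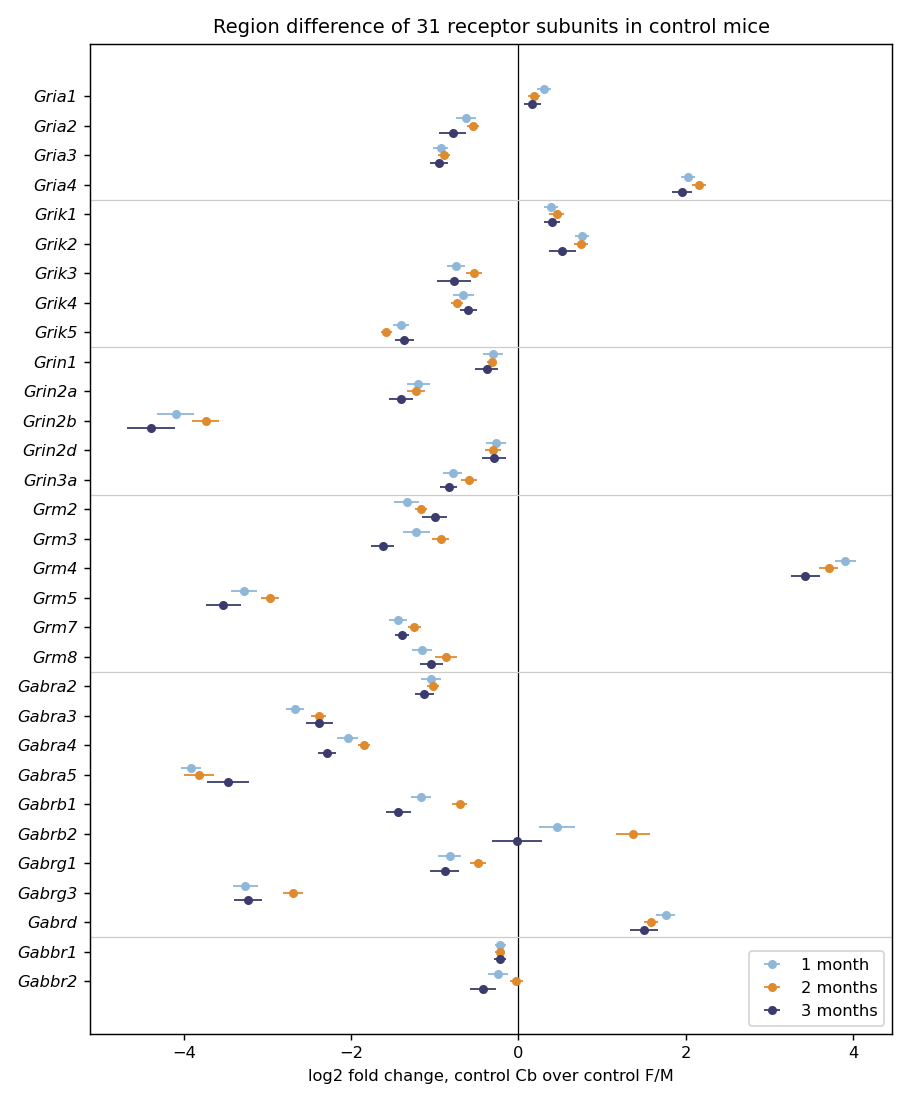
Region difference of the 31 subunit genes in control mice. Each point is the log2 fold change, Cb over F/M, ± SE from 3 against 3 libraries, with 1 colour per age and genes grouped by receptor class, so points right of 0 are higher in Cb. Grm4, Gria4 and Gabrd lie to the right at every age, Grin2b, Gabra5, Grm5 and Gabrg3 lie farthest to the left, and the ages lie farthest apart for Gabrb2, which ranges over 1.38, followed by Gabrb1 (0.73), Grm3 (0.69) and Grin2b (0.65).

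Among the AMPA receptor genes, *Gria4*, the GluA4 subunit found in granule cells and Bergmann glia, was the AMPA member called higher in Cb. Control levels of *Gria4* in F/M were 186, 179.6 and 167 CPM (1 month), 151, 143 and 147 (2 months) and 172, 166 and 176 (3 months). Those in Cb were 711, 744 and 720.0 CPM (1 month), 628, 675 and 662 (2 months) and 658, 669 and 663 (3 months). Every Cb library lay far above every F/M library, with log2 differences of 2.03, 2.16 and 1.95 at 1, 2 and 3 months. *Tpp1*-/- libraries of all ages held 133 to 185 CPM in F/M and 497 to 797 CPM in Cb. *Gria3*, which encodes GluA3, measured 320.1, 298 and 314 CPM (1 month), 319.6, 279.9 and 294 (2 months) and 295, 280.0 and 313 (3 months) in F/M. In Cb it measured 158, 159.8 and 171 CPM (1 month), 149, 168 and 166 (2 months) and 154, 156 and 149 (3 months). Here each F/M library was above each Cb library of its age, and the log2 difference was −0.93, −0.89 and −0.95. *Gria2*, whose product makes AMPA receptors almost impermeable to calcium, was called lower in Cb at 1 and 3 months (−0.62 and −0.79) and not at 2 months (−0.54, short of 1.5-fold). *Gria1* differed by 0.30, 0.18 and 0.17 and was called at no age. Per length, *Gria4* (105 ± 0.848 RPKM, SD, n = 3) and *Gria1* (104 ± 10.4 RPKM) stood at about the same level in Cb at 3 months, within their spread. As a share of the AMPA family per length at 3 months (mean ± SD, n = 3), *Gria4* was 13.0% ± 0.228 in F/M and 40.6% ± 1.13 in Cb and *Gria2* was 28.5% ± 0.777 in F/M and 13.4% ± 1.52 in Cb.

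The kainate receptor genes split between the regions. *Grik5*, a high-affinity subunit that needs a partner from *Grik1* to *Grik3* to form a channel, was the highest of the 5 in F/M per length (32.2 ± 1.66 RPKM at 3 months). In CPM, *Grik5* was 190.4, 179 and 173 CPM (1 month), 181, 202 and 190.4 (2 months) and 173, 169.7 and 157 (3 months) in F/M. It was 74.9, 63.1 and 66.7 CPM (1 month), 65.4, 63.5 and 62.9 (2 months) and 57.2, 58.2 and 78.6 (3 months) in Cb. The groups were far apart at each age, with log2 differences of −1.41, −1.58 and −1.36. *Grik3* was 131, 123 and 134 CPM (1 month), 127, 87.5 and 107 (2 months) and 138, 136 and 142 (3 months) in F/M. Its Cb values were 83.4, 71.1 and 77.5 CPM (1 month), 73.2, 76.7 and 72.7 (2 months) and 74.8, 67.8 and 101.1 (3 months). Its log2 differences were −0.74, −0.53 and −0.77, called at 1 and 3 months and under the fold limit at 2 months. Without control replicate 3 of the 3-month Cb the 3-month value was −0.96 (adjusted p = 0.00267). *Grik2* went the other way, with 0.76, 0.75 and 0.52 and calls at 1 and 2 months. *Grik4*, the other high-affinity subunit, was called lower in Cb at each age (−0.66, −0.73 and −0.60) and *Grik1* was not called (0.39, 0.46 and 0.40). *Grik5* held 50.6% ± 1.80 of kainate transcripts per length in F/M and 30.6% ± 3.20 in Cb, where *Grik2* held a like share (30.3% ± 5.14).

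Of the NMDA receptor genes, *Grin2b* had the widest region difference of all 31 members at 1 and 3 months. It encodes GluN2B, a glutamate-binding subunit of receptors with slow kinetics. F/M libraries held 777, 811 and 828 CPM (1 month), 609, 340.0 and 461 (2 months) and 793, 754 and 788 (3 months) of *Grin2b*. Cb libraries held 47.2, 40.2 and 53.5 CPM (1 month), 29.2, 40.3 and 35.7 (2 months) and 39.4, 36.4 and 35.4 (3 months). Cb was lower throughout, by log2 differences of −4.10, −3.74 and −4.39, and *Tpp1*-/- libraries of all ages held 444 to 792 CPM in F/M and 16.3 to 55.8 CPM in Cb. For *Grin2a*, the GluN2A subunit of faster receptors, F/M values were 258, 252 and 288 CPM (1 month), 276, 172 and 227 (2 months) and 254, 244 and 243 (3 months). Cb values of *Grin2a* were 119, 103 and 126 CPM (1 month), 94.9, 96.6 and 97.1 (2 months) and 92.7, 90.0 and 96.7 (3 months). The regions again did not overlap, with log2 differences of −1.20, −1.23 and −1.41. *Grin3a*, whose product lowers calcium entry, was the third member called lower in Cb at every age (−0.79, −0.59 and −0.84). *Grin1*, the subunit that every NMDA receptor needs, differed by −0.30, −0.32 and −0.38, and *Grin2d* by −0.27, −0.31 and −0.29, neither reaching 1.5-fold. Among the 4 GluN2 genes, *Grin2b* made up 56.1% ± 0.428 per length in F/M at 3 months and 2.69% ± 0.66 in Cb. *Grin2c*, a subunit gene outside the 31, made up 83.6% ± 2.73 in Cb and 13.8% ± 0.425 in F/M.

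**Figure D2:**
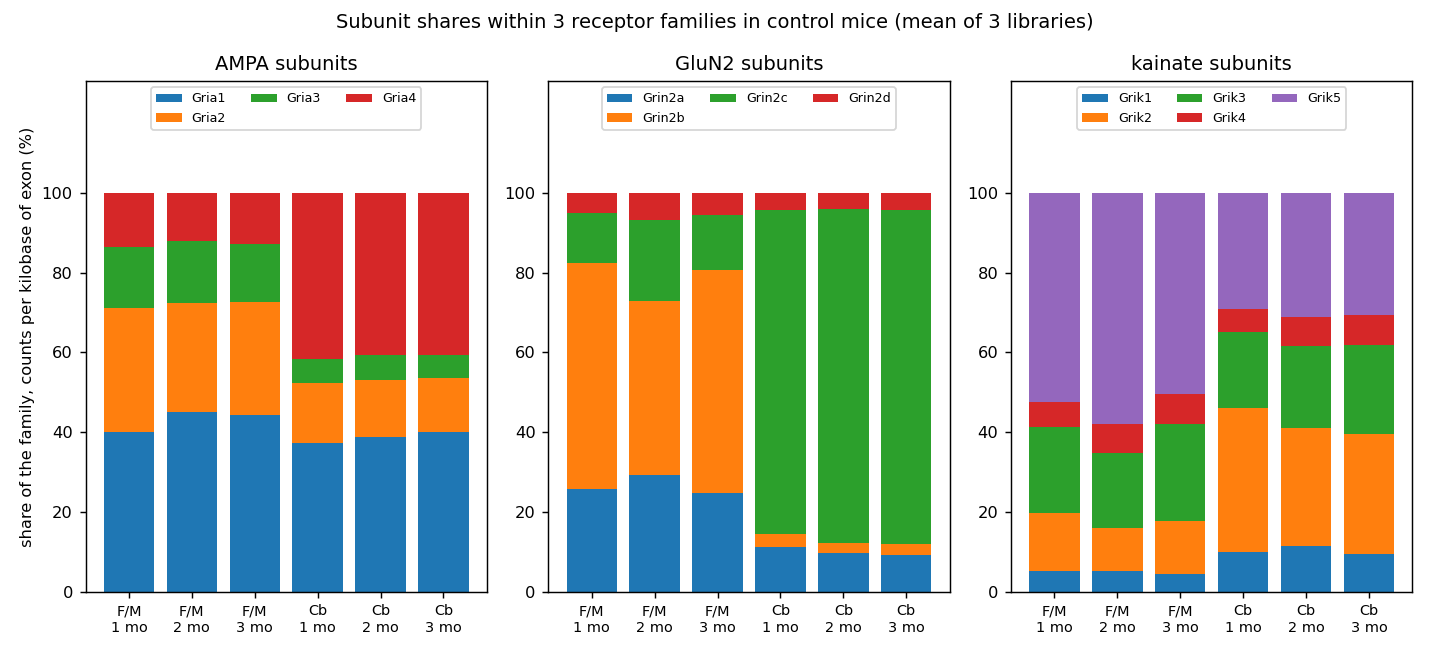
Subunit shares within the AMPA, GluN2 and kainate families in control libraries, by region and age. Stacked bars show the mean percent of the family's counts per kilobase of exon over 3 libraries. Gria4, Grin2c and Grik2 take larger shares in Cb, and Gria2, Grin2b and Grik5 larger shares in F/M, at each age.

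Metabotropic glutamate receptor genes showed opposite extremes. *Grm4*, a group III receptor that lowers cAMP and sits on granule cell axon terminals, was 31.6, 35.5 and 35.4 CPM (1 month), 34.1, 31.2 and 33.0 (2 months) and 34.5, 35.3 and 30.3 (3 months) in F/M. Its values in Cb were 574, 428 and 537 CPM (1 month), 485, 373 and 426 (2 months) and 307, 303 and 466 (3 months). That was the largest difference toward Cb among the 31, with log2 values of 3.91, 3.71 and 3.43. *Tpp1*-/- libraries of all ages held 27.3 to 37.4 CPM in F/M and 234 to 582 CPM in Cb. *Grm5*, a group I receptor that couples to phospholipase C, was 340.0, 337 and 317 CPM (1 month), 297, 231 and 264 (2 months) and 341, 346 and 359 (3 months) in F/M. In Cb, *Grm5* was 32.5, 34.3 and 35.4 CPM (1 month), 29.0, 37.2 and 34.5 (2 months) and 35.97, 36.2 and 18.6 (3 months). Cb was lower by log2 −3.28, −2.97 and −3.53, and at 3 months control replicate 3 of the Cb was the lowest of the 9. Without it the 3-month difference was −3.27 (adjusted p = 1.61e-09). *Grm2* (−1.34, −1.16 and −1.004) and *Grm3* (−1.22, −0.93 and −1.62) of group II and *Grm7* (−1.44, −1.24 and −1.39) and *Grm8* (−1.15, −0.87 and −1.04) of group III were called lower in Cb at every age.

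The 9 GABAA genes held the other large differences toward F/M. *Gabra5*, the alpha5 subunit of receptors that lie mostly outside synapses in hippocampus and cortex, was 74.1, 67.2 and 61.9 CPM (1 month), 73.4, 75.1 and 79.3 (2 months) and 72.6, 72.8 and 73.1 (3 months) in F/M. Cb control libraries measured 3.69, 5.05 and 4.73 CPM (1 month), 3.85, 5.97 and 6.14 (2 months) and 8.26, 7.75 and 3.69 (3 months) for *Gabra5*. Log2 differences were −3.91, −3.82 and −3.47, and every Cb value stood far below every F/M value. *Gabrg3*, a gamma subunit gene next to *Gabra5* on chromosome 7, was 58.0, 60.7 and 56.5 CPM (1 month), 44.1, 31.8 and 37.0 (2 months) and 56.0, 54.0 and 54.8 (3 months) in F/M. Its Cb values were near the low end of what was counted for any member, at 5.10, 5.86 and 7.18 CPM (1 month), 5.41, 5.56 and 6.44 (2 months) and 6.59, 7.02 and 3.92 (3 months). The log2 differences of *Gabrg3* were −3.26, −2.70 and −3.23. Control replicate 3 of the 3-month Cb was low for both, and without it the 3-month differences were −3.18 (adjusted p = 1.57e-07) for *Gabra5* and −3.01 (adjusted p = 9.47e-10) for *Gabrg3*. *Gabra3* (−2.67, −2.39 and −2.38), *Gabra4* (−2.04, −1.85 and −2.29), *Gabra2* (−1.05, −1.02 and −1.12) and *Gabrb1* (−1.17, −0.70 and −1.44) were also called lower in Cb at each age. *Gabrg1* was called at 1 and 3 months (−0.82 and −0.88) and was −0.48 at 2 months. *Gabrd*, the delta subunit that replaces gamma in receptors outside synapses, was higher in Cb (1.76, 1.58 and 1.501), with 44.3 to 74.0 CPM in the 9 F/M and 139 to 209.8 CPM in the 9 Cb control libraries. *Gabrb2* varied most across ages, with 0.46, 1.37 and −0.02, and was called higher in Cb at 2 months alone, where its F/M controls were 147, 66.5 and 109 CPM against 218, 238 and 216 CPM at 1 month and 264, 251 and 257 CPM at 3 months. Without control replicate 2 of the 2-month F/M, the lowest of these, it was 1.12 (adjusted p = 5.44e-06). Age and the set in which libraries were processed cannot be told apart in such levels.

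GABAB receptors form from *Gabbr1*, which binds GABA, and *Gabbr2*, which couples to the G protein, and this pair showed the smallest region differences of any class. *Gabbr1* was the highest of the 31 per length in F/M (111 ± 1.58 RPKM at 3 months) and measured 94.9 ± 3.996 RPKM in Cb. In F/M it was 828, 814 and 842 CPM (1 month), 871, 825 and 861 (2 months) and 866, 868 and 846 (3 months), and in Cb 699.6, 706 and 732, 730.2, 745 and 727, and 729.7, 710.1 and 771 CPM. Its log2 differences were −0.22, −0.22 and −0.22. *Gabbr2* was 356, 352 and 360.3 CPM (1 month), 373, 281 and 328 (2 months) and 389.6, 386 and 358 (3 months) in F/M. Cb values of *Gabbr2* were 291, 281 and 327 CPM (1 month), 316, 328 and 319.9 (2 months) and 247, 251 and 348 (3 months). The log2 differences of −0.25, −0.03 and −0.42 were all under 1.5-fold. Without control replicate 3 of the 3-month Cb, the highest there, the 3-month value was −0.60 (adjusted p = 0.00434).

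*Tpp1*-/- and control mice were then compared within each region and age. At 1 month none of the 31 was called in F/M or in Cb, where 0.0112% of all genes tested were called in each region. In F/M no member reached an unadjusted p under 0.05 (1.89% of all genes did), and the log2 differences, *Tpp1*-/- over control, ran from −0.22 (*Gabrb2*) to 0.11 (*Grik4*). In Cb 3 members reached it (*Gria4*, *Grik2* and *Gabrb2*, all with lower means in *Tpp1*-/-), as did 7.66% of all genes, and the smallest adjusted p was 0.63. The lowest was *Gabrb2* at −0.59 ± 0.22 (adjusted p = 0.63), with 306, 296 and 323 CPM in controls and 112, 240.3 and 262 CPM in *Tpp1*-/-. *Tpp1*-/- replicate 1, which stood apart, was the lowest, and the other *Tpp1*-/- libraries also lay below the controls. Without it the value was −0.30 (adjusted p = 0.641). DESeq2 and limma-voom also gave 0 calls in both regions, as did leaving out the heterozygous control.

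At 2 months the Cb showed 3 members called lower in *Tpp1*-/- and none higher, where 1.8% of all genes tested were called lower and 2.05% in either direction. They were *Grm5*, *Gabra5* and *Gabrg3*. *Grm5* (ID ENSMUSG00000049583, chr7:87584168-88134907, GRCm38) measured 29.0, 37.2 and 34.5 CPM in Cb controls and 13.9, 11.6 and 11.5 CPM in *Tpp1*-/-, so the groups did not overlap. Its log2 fold change was −1.44 ± 0.12 (adjusted p = 3.52e-07). The *Tpp1*-/- values also lay below the 18.6 to 41.0 CPM of the other 15 Cb libraries of all ages. *Gabra5* (ID ENSMUSG00000055078, chr7:57407672-57510059) was 3.85, 5.97 and 6.14 CPM in controls and 2.73, 0.727 and 1.12 CPM in *Tpp1*-/-, from 67, 132 and 123 and 75, 16 and 18 counts. The groups did not overlap and the log2 fold change was −1.71 ± 0.28 (adjusted p = 0.000864). *Tpp1*-/- replicate 1 was the highest of the 3, and without it the value was −2.58 (adjusted p = 4.81e-06). *Gabrg3* (ID ENSMUSG00000055026, chr7:56716465-57387188) was 5.41, 5.56 and 6.44 CPM in controls and 2.47, 2.63 and 2.31 CPM in *Tpp1*-/-, again without overlap. The change was −1.22 ± 0.16 (adjusted p = 0.000105). The other 15 Cb libraries held 3.92 to 7.18 CPM of *Gabrg3*.

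A further 2 members fell by less than 1.5-fold with an adjusted p under 0.1, which 3.08% of all genes had at any fold. *Gabra3*, the alpha3 subunit, was 25.8, 34.9 and 29.0 CPM in controls and 20.3, 21.1 and 21.3 CPM in *Tpp1*-/- (−0.52 ± 0.09, adjusted p = 0.00203). *Grin2d*, the GluN2D subunit of NMDA receptors known from midbrain, thalamus and interneurons, was 15.9, 15.1 and 14.5 CPM and 11.1, 10.99 and 12.3 CPM (−0.41 ± 0.10, adjusted p = 0.023). Neither gene's groups overlapped. The adjusted p of *Grin2d* was 0.104 without *Tpp1*-/- replicate 1 and 0.114 without replicate 2. The remaining members had no adjusted p under 0.1, and the highest log2 value was that of *Gria1* (0.21 ± 0.07, adjusted p = 0.214). *Grin2b*, another member with far less in Cb than in F/M, was −0.29 ± 0.16 (adjusted p = 0.63) with 29.2, 40.3 and 35.7 CPM in controls and 27.6, 31.1 and 27.7 CPM in *Tpp1*-/-. At an unadjusted p under 0.05 stood 8 members with lower and 1 with a higher mean, where 9.67% of all genes stood. The median over the 31 was −0.06, and 0 over all genes.

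**Figure D3:**
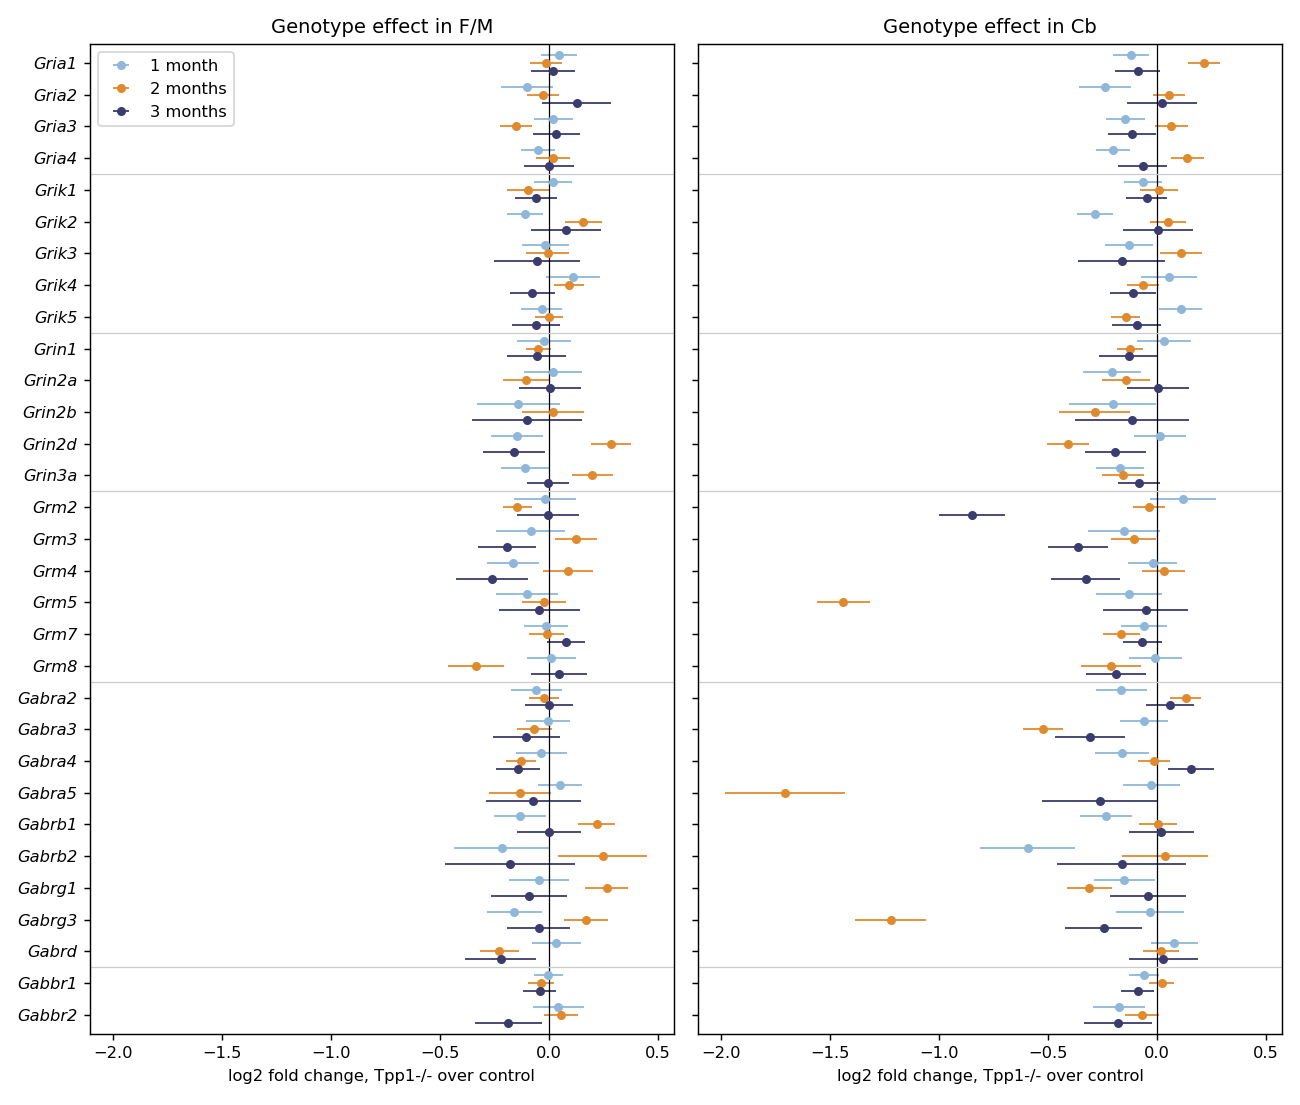
Genotype difference of the 31 subunit genes. Each point is the log2 fold change, Tpp1-/- over control, ± SE from 3 against 3 libraries, in F/M (left) and Cb (right), with 1 colour per age. Most points lie near 0, and those that stand out are Grm5, Gabra5 and Gabrg3 in the Cb at 2 months and Grm2 in the Cb at 3 months.

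*Gabrg3* and *Gabra5* are neighbours on the minus strand of chromosome 7, with 20483 bases between them. The bases before the starts of these 2 genes, and of *Grm2*, called in the Cb at 3 months, are shown because they are the members with a genotype call for which the RefSeq table of promoters had an entry. Each is the 250 bases upstream of the start (GRCm38.p6, read 5′ to 3′ on the minus strand), with capitals marking GC boxes, GGGCGG or its complement CCGCCC.
*Gabra5* (chr7:57510060-57510309): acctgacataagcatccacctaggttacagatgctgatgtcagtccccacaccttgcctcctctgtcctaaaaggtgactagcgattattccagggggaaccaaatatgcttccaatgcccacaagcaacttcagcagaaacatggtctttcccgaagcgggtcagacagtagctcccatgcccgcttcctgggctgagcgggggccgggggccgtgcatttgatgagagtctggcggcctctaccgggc
*Gabrg3* (chr7:57387216-57387465): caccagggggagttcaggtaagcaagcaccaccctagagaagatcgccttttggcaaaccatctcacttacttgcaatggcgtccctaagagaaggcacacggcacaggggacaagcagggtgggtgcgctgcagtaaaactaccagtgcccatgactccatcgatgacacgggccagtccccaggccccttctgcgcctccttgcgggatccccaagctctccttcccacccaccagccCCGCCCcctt
*Grm2* (chr9:106656110-106656359): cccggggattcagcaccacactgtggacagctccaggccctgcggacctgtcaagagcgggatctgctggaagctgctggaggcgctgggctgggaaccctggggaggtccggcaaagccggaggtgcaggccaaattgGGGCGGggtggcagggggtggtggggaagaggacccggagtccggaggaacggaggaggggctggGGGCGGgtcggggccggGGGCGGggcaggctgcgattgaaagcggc

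*Gabra5* held no GC box, *Gabrg3* held 1 and *Grm2* held 3. A GC box stood in a window of 35.4% of all 27025 genes with one and of 13 of the 22 members with one. The GC content was 56.4% for *Gabra5*, 60.4% for *Gabrg3* and 71.2% for *Grm2*, with 9, 9 and 16 CpG dinucleotides, where the median over all windows was 52.4% and 6.

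Markers of other brain parts moved with these calls in the 2-month Cb. The mean log2 CPM of 15 midbrain and thalamus genes was 0.38, 0.44 and 0.55 in the *Tpp1*-/- libraries and 1.52, 1.96 and 1.597 in the controls, while the 15 Cb libraries other than these *Tpp1*-/- libraries held 1.27 to 2.00. Of the 15 marker genes, 7 were called lower, their summed level was 146 to 156 CPM against 191 to 204 CPM, and *Gata3*, *Gbx2* and *Slc6a3* were among those at 3 or fewer counts in the *Tpp1*-/- libraries. Of 8 interneuron genes, 2 were called lower, with a mean log2 CPM of 0.16, 0.23 and −0.17 in *Tpp1*-/- and 0.72, 1.000 and 0.82 in controls. Their summed level was not lower, at 259 to 284 CPM in *Tpp1*-/- and 246 to 260 CPM in controls. Among them *Kit* had a higher mean in *Tpp1*-/- (259 against 229 CPM, not called). *Cort*, *Dlx2* and *Vip* had 3 or fewer counts in the *Tpp1*-/- libraries. Of 12 choroid plexus genes, 7 were called higher, with a mean log2 CPM of 4.80, 4.71 and 4.73 in *Tpp1*-/- and 4.18, 3.98 and 4.09 in controls, and a summed level of 1629.8 to 1812 CPM against 994 to 1294 CPM. Of 8 oligodendrocyte genes, none was called at 1.5-fold, 2 were lower at an adjusted p under 0.1, and the mean log2 CPM was 7.98, 7.76 and 7.89 in *Tpp1*-/- and 8.06, 8.10 and 8.13 in controls. Of 12 cortex and striatum genes, 1 was called higher and 1 lower, with a mean log2 CPM of 0.81, 0.47 and 0.79 in *Tpp1*-/- and 0.80, 0.92 and 0.96 in controls. Of 8 Purkinje cell genes none was called, and all 8 had log2 fold changes above 0. An unadjusted p under 0.05 was reached by 4 of them, where 9.67% of all genes reached it. Their mean log2 CPM was 9.19 to 9.42 in *Tpp1*-/- and 9.15 to 9.17 in controls. In F/M the midbrain and thalamus score went the other way, at 2.74 to 2.93 in *Tpp1*-/- and 2.35 to 2.52 in controls. With that score added to the model as a covariate, none of the 31 was called in the Cb, and the changes were −0.85 (adjusted p = 0.853) for *Grm5*, −1.19 (adjusted p = 0.936) for *Gabra5* and −1.45 (adjusted p = 0.826) for *Gabrg3*, where 0.0755% of all genes were called. *Gabra3* turned from −0.52 to 0.54 (adjusted p = 0.899) in that fit. Because the score did not overlap between the genotypes there, the score and the genotype could not be told apart in that fit. With the cortex and striatum score in its place, *Gabra5* was −0.86 (adjusted p = 0.3) and no longer called, while *Grm5* (−1.28, adjusted p = 0.000167) and *Gabrg3* (−1.22, adjusted p = 0.00436) were, in a fit that called 1.11% of all genes. The part of tissue composition in these calls was not tested further.

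**Figure D4:**
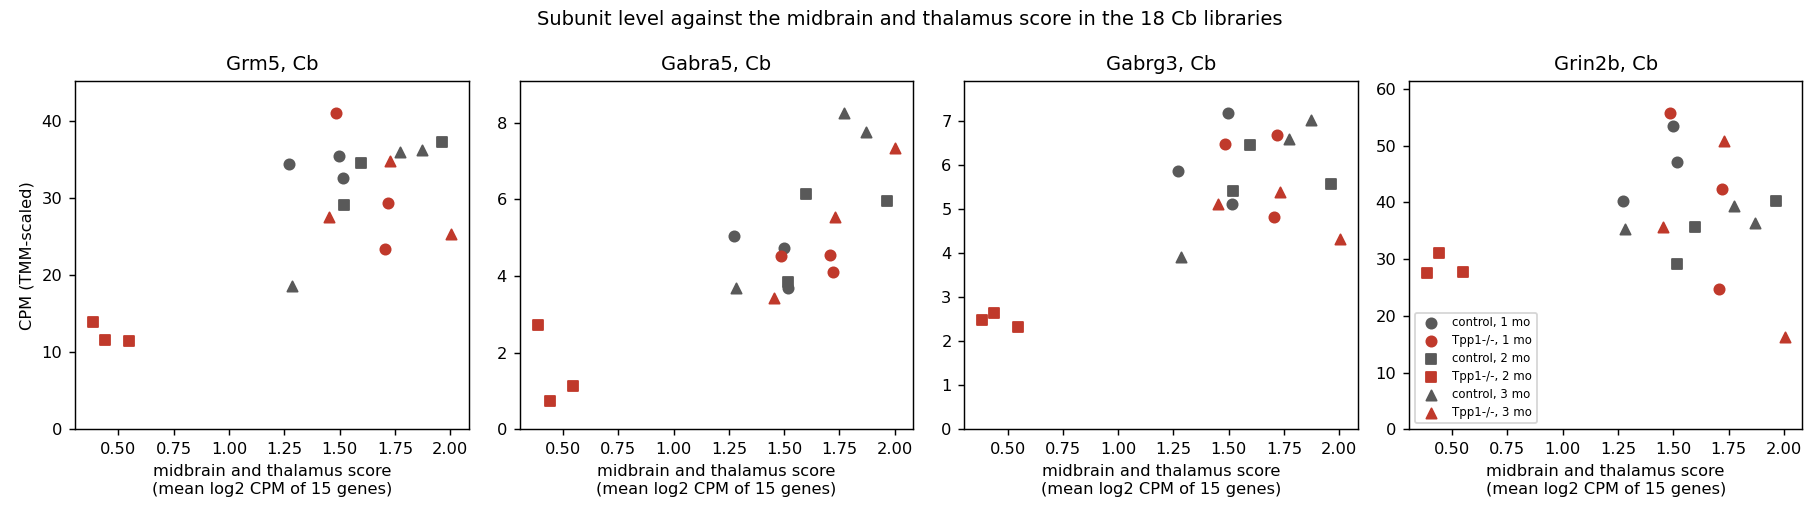
Levels of Grm5, Gabra5, Gabrg3 and Grin2b in the 18 Cb libraries (CPM, vertical axes) against the midbrain and thalamus score of each library (mean log2 CPM of 15 genes, horizontal axes). The 3 Tpp1-/- libraries of 2 months have the lowest scores, 0.385 to 0.547, and the lowest Grm5, Gabra5 and Gabrg3, while Grin2b in them lies within the range of the other libraries.

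In F/M at 2 months no member was called, where 0.737% of all genes were. An unadjusted p under 0.05 was reached by 4 members with higher means in *Tpp1*-/- (*Grin2d*, *Grin3a*, *Gabrb1* and *Gabrg1*) and 3 with lower means (*Grm2*, *Grm8* and *Gabrd*), where 16.9% of all genes did, and the smallest adjusted p was that of *Grin2d* (0.28 ± 0.09, adjusted p = 0.128). Without control replicate 2, which stood apart, *Grin2a* was −0.26 (adjusted p = 0.0761), short of 1.5-fold. Marker genes moved in the same comparison: 8 of 12 choroid plexus genes were called higher, with a mean log2 CPM of 3.68, 2.92 and 3.35 in *Tpp1*-/- and 1.89, 2.96 and 2.45 in controls. Of 8 astrocyte and Bergmann glia genes 3 were higher at an adjusted p under 0.1, with 6.48, 6.15 and 6.34 against 6.07, 6.02 and 6.07, and the mean of the 12 cortex and striatum genes was 5.98, 5.96 and 5.997 against 6.11, 6.13 and 6.12. Their part in these values was not tested beyond the covariates. DESeq2 and limma-voom gave 0 calls as well.

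The genotype effect at 2 months differed between the regions for 6 members, each with a lower effect in Cb, at an adjusted p under 0.1 for the interaction. This rule called 2.79% of all genes in that direction and 2.97% in all. The difference of the log2 effects, Cb minus F/M, was −1.57 ± 0.31 (adjusted p = 0.00802) for *Gabra5*, −1.42 ± 0.16 (adjusted p = 1.93e-05) for *Grm5* and −1.39 ± 0.19 (adjusted p = 0.000188) for *Gabrg3*. In F/M the genotypes overlapped for all of these. *Grm5* was 297, 231 and 264 CPM in F/M controls and 233, 289 and 259 CPM in *Tpp1*-/-. *Gabra5* was 73.4, 75.1 and 79.3 CPM and 62.5, 74.2 and 71.4 CPM. *Gabrg3* was 44.1, 31.8 and 37.0 CPM and 41.3, 45.7 and 40.0 CPM. *Grin2d* differed by −0.69 ± 0.13 (adjusted p = 0.00534), with a higher mean in the F/M of *Tpp1*-/- (22.1, 20.9 and 25.9 CPM against 18.01, 18.9 and 19.3 CPM) and a lower one in the Cb. For *Gabrg1*, a gamma subunit gene, the difference was −0.57 ± 0.14 (adjusted p = 0.0372). Its controls in F/M measured 43.6, 45.5 and 46.5 CPM and *Tpp1*-/- 59.4, 49.2 and 54.0 CPM, and in Cb 27.3, 38.0 and 31.4 CPM and 25.3, 28.1 and 24.8 CPM. *Gabra3* was the weakest of the 6 at −0.45 ± 0.12 (adjusted p = 0.0663), with 161, 154 and 155 CPM in F/M controls and 141, 161 and 148 CPM in *Tpp1*-/-. The call of *Gabra3* was lost without F/M control replicate 3, F/M *Tpp1*-/- replicate 2 or 3, Cb control replicate 2 or 3, or any Cb *Tpp1*-/- replicate, with adjusted p up to 0.234 (Cb control replicate 2), and that of *Gabrg1* without F/M *Tpp1*-/- replicate 1 (0.137) or Cb control replicate 2 (0.126). Without Cb *Tpp1*-/- replicate 1 the difference for *Gabra5* was −2.44 (adjusted p = 3.57e-05). None of the 6 was called with either marker score as a covariate. With the midbrain and thalamus score the difference was −2.20 for *Gabrg3*, −1.44 for *Grm5*, −1.19 for *Gabra5* and −0.43 for *Grin2d*. With the cortex and striatum score it was −1.93 for *Grin2d*, −1.12 for *Gabrg1*, −0.68 for *Gabra5* and −0.18 for *Grm5*. The other values, 2 with each score, were positive. The midbrain and thalamus score in both regions and the cortex and striatum score in F/M did not overlap between genotypes. Score and genotype could therefore not be told apart in these fits.

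**Figure D5:**
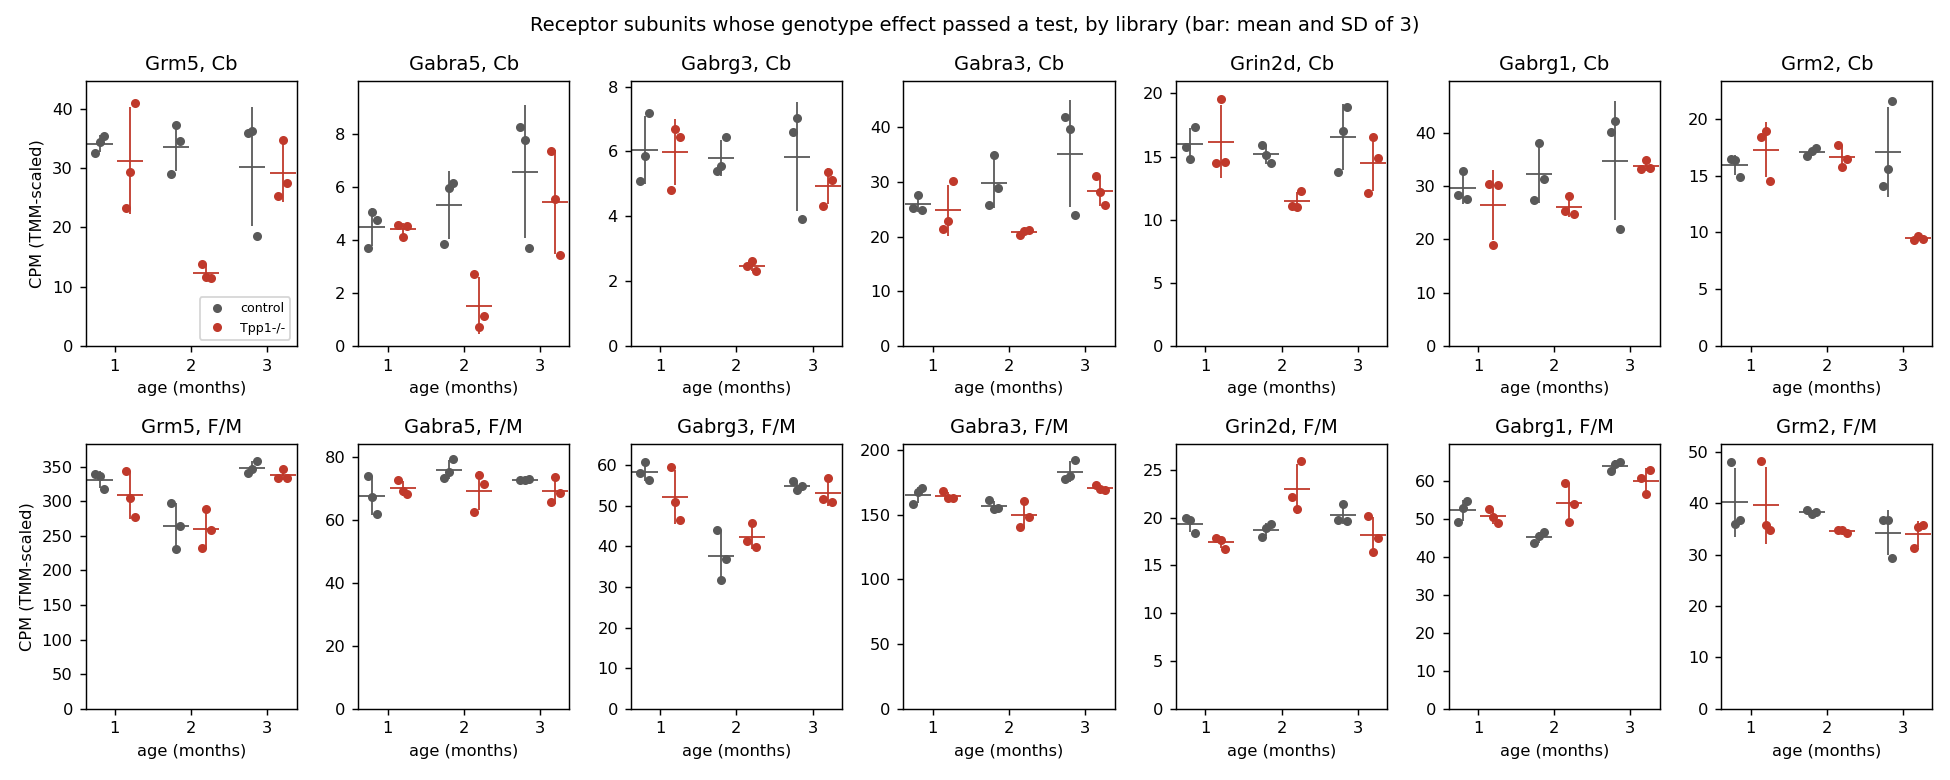
Levels of the 7 members with a genotype or interaction result in every library, in CPM, with Cb in the top row and F/M in the bottom row. Points are libraries, by age and genotype, and bars show the mean and SD of 3. In the Cb at 2 months the Tpp1-/- points of Grm5, Gabra5, Gabrg3, Gabra3 and Grin2d lie below all control points of that age, and at 3 months those of Grm2 do.

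At 3 months *Grm2* was the sole member called in the Cb, lower in *Tpp1*-/-, where 0.186% of all genes were called lower and 0.859% in either direction. *Grm2* encodes mGlu2, which in the cerebellum is known from Golgi cells. Its levels (ID ENSMUSG00000023192, chr9:106643095-106656082) were 14.1, 15.5 and 21.6 CPM in controls and 9.33, 9.65 and 9.44 CPM in *Tpp1*-/-, without overlap. The log2 fold change was −0.85 ± 0.15 (adjusted p = 0.0159). Control replicate 3, which stood apart, was the highest, and without it the change was −0.64 (adjusted p = 0.0271). In a fit to the 6 Cb libraries alone the change kept its size but not its call, −0.84 (adjusted p = 0.227). At the other ages *Grm2* in Cb was 16.4, 16.4 and 14.9 CPM in controls and 18.4, 18.9 and 14.5 CPM in *Tpp1*-/- at 1 month, and 16.7, 17.2 and 17.4 CPM and 17.7, 15.8 and 16.5 CPM at 2 months. In F/M at 3 months it was 36.7, 36.7 and 29.3 CPM in controls and 31.2, 35.4 and 35.7 CPM in *Tpp1*-/-. Its region difference in genotype effect at 3 months was −0.84 ± 0.21 (adjusted p = 0.699) and was not called.

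*Grm3*, the other group II receptor, was the other member with an unadjusted p under 0.05 there (6.49% of all genes), at −0.36 ± 0.14 (adjusted p = 0.579). *Grm5*, *Gabra5* and *Gabrg3* showed no call in the 3-month Cb, at −0.05 ± 0.20 (adjusted p = 0.992), −0.26 ± 0.27 (adjusted p = 0.96) and −0.24 ± 0.18 (adjusted p = 0.935). Their controls included replicate 3, which was low for all of them, and without it the values were −0.31 (adjusted p = 0.371), −0.54 (adjusted p = 0.426) and −0.47 (adjusted p = 0.0998), all short of 1.5-fold. Of 13 microglia genes, 9 were called higher in the 3-month Cb of *Tpp1*-/- and their mean log2 CPM was 4.85, 4.28 and 4.47 against 2.97, 3.01 and 2.79, and the cortex and striatum score was 0.96, 0.78 and 0.59 against 1.59, 1.49 and 0.98. With the cortex and striatum score as a covariate *Grm2* was −1.28 (adjusted p = 0.00848), in a fit that called 7.48% of all genes and in which score and genotype could not be told apart, since that score did not overlap between the genotypes. The part of these shifts in the *Grm2* result was not tested further. In F/M at 3 months no member was called and none had an unadjusted p under 0.05 (backgrounds of 0.464% and 5.94%). DESeq2 and limma-voom gave 0 calls there and the same call of *Grm2* in the Cb. No member was called for a difference of the genotype effect between regions at 1 or 3 months, where 0% and 0.00581% of all genes were. The count in the 3-month Cb was 1 when each library was left out in turn.

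Across ages, the genotype effect in Cb changed for 3 members between 1 and 2 months, all toward lower values (background 1.27% lower, 1.28% in all, adjusted p under 0.1 in a model of all 36 libraries). The log2 change of the effect was −1.31 ± 0.25 (adjusted p = 0.00288) for *Grm5*, −1.69 ± 0.40 (adjusted p = 0.0262) for *Gabra5* and −1.18 ± 0.25 (adjusted p = 0.00832) for *Gabrg3*. At 1 month the genotypes overlapped for all of these. *Grm5* was 32.5, 34.3 and 35.4 CPM in controls and 23.3, 29.3 and 41.0 CPM in *Tpp1*-/-, *Gabra5* 3.69, 5.05 and 4.73 and 4.54, 4.11 and 4.52 CPM, and *Gabrg3* 5.10, 5.86 and 7.18 and 4.81, 6.68 and 6.46 CPM. From 2 to 3 months the effect on these 3 rose again, by 1.39 ± 0.25 (adjusted p = 0.00122), 1.46 ± 0.39 (adjusted p = 0.0636) and 0.98 ± 0.26 (adjusted p = 0.0505), where 1.3% of genes did. Without control replicate 3 of the 3-month Cb that step was 1.13 (adjusted p = 0.00195) for *Grm5*, 1.17 (adjusted p = 0.173) for *Gabra5* and 0.75 (adjusted p = 0.169) for *Gabrg3*. Without *Tpp1*-/- replicate 1 of the 2-month Cb the steps of *Gabra5* were −2.54 (adjusted p = 0.000555) and then 2.31 (adjusted p = 0.00155). *Gabra5* also lost the call of the second step without control or *Tpp1*-/- replicate 2 or 3 of 2 months or *Tpp1*-/- replicate 1 of 3 months (adjusted p up to 0.329). *Gabrg3* did so without control replicate 3 or *Tpp1*-/- replicate 1 or 3 of 2 months, or *Tpp1*-/- replicate 2 of 3 months (up to 0.175). *Gabra5* lost its step from 1 to 2 months without *Tpp1*-/- replicate 2 of 2 months (−1.34, adjusted p = 0.161). The 2 steps share the 2-month libraries and so are not independent. At 3 months *Grm5* was 25.2, 34.7 and 27.6 CPM in *Tpp1*-/- against 35.97, 36.2 and 18.6 CPM in controls, *Gabra5* 7.34, 5.54 and 3.43 against 8.26, 7.75 and 3.69 CPM, and *Gabrg3* 4.31, 5.38 and 5.12 against 6.59, 7.02 and 3.92 CPM. For *Grm2* the effect fell by 3 months against 2 months (−0.81 ± 0.19, adjusted p = 0.0233) and against 1 month (−0.96 ± 0.19, adjusted p = 0.0133), or −0.61 (adjusted p = 0.153) and −0.77 (adjusted p = 0.0542) without that control library, with backgrounds of 0.131% and 0.18%. In F/M no member was called between any 2 ages (backgrounds 0.0218%, 0.393% and 0.153%).

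Among the genes around the receptors, those called were lower in *Tpp1*-/-. In the 2-month Cb, 4 of 61 were called, against 2.05% of all genes. Of 12 tested receptor subunit genes outside the 31, *Gabrq*, a theta GABAA subunit gene, was called lower in the 2-month Cb (−1.32 ± 0.36, adjusted p = 0.0638). Of 18 auxiliary subunit genes, *Cnih3*, which encodes a cornichon protein of AMPA receptors, was called lower there (−1.79 ± 0.15, adjusted p = 3.22e-07). Its levels were 8.05, 8.82 and 7.54 CPM in controls and 1.86, 2.77 and 2.56 CPM in *Tpp1*-/-. Of 15 genes of transmitter synthesis and transport, *Slc17a6*, the vesicular glutamate transporter VGLUT2 of subcortical neurons, and *Slc6a11*, the GABA transporter GAT3, were called lower, by −1.44 ± 0.15 (adjusted p = 4.26e-06) and −1.12 ± 0.12 (adjusted p = 4.76e-06). None of 16 postsynaptic scaffold genes was called. At 3 months in the Cb, *Neto1*, an auxiliary subunit of kainate and NMDA receptors, was the sole call over these lists (−0.81 ± 0.15, adjusted p = 0.0198), where 0.859% of all genes were called. None of these genes was called in the Cb at 1 month or in F/M at any age. The interaction at 2 months called 1 other subunit gene, 2 auxiliary genes, 1 scaffold gene and 2 transport genes, all with a lower effect in Cb (2.97% of all genes in either direction).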

How the data were processed

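Each library was deposited as raw counts per gene, which the authors made from 50-base single-end reads of TruSeq stranded mRNA libraries with featureCounts (1.6.3 at 1 month, 1.6.2 at 2 and 3 months per the file headers) on GRCm38. GENCODE annotation was releases M21, M16 and M18 and the strand setting 1, 2 and 1, at 1, 2 and 3 months. The headers also name fractional counting of reads with several alignments, yet all deposited values are whole numbers, and how such reads entered them is not given in the sources used here. The submitters' notes also name STAR 2.5.2b. Replicates were separate mice. Each age was fitted by itself in edgeR 4.0.16 (R 4.3.3, TMM, filterByExpr, quasi-likelihood test, 12 libraries in 4 groups), testing 17916, 17229 and 17224 genes, and changes across ages in a model of 36 libraries (18322 genes). Marker scores used log2 CPM with a prior count of 2. Methods were tested on simulated counts. Alternatives were DESeq2 1.42.0, limma-voom (3.58.1), other scaling, filters and thresholds, replicate blocks, sex or marker covariates, and leaving out each library. Values in every library are given for members with a genotype or interaction result, and control values for the 2 members per class with the largest region difference at 3 months. Genes of the lists around the receptors are named when called in a genotype comparison. Marker genes are given mostly as counts and scores. Some results on genes outside the 31, subunit shares of the GABAA alpha family among them, are not reported here. Members and gene lists were chosen with earlier results of these data known.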

Additional observations from a re-analysis of the deposited data

Results flagged for a closer look

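The effect of genotype differed between the regions at 2 months for 6 members, by an interaction test over all genes (edgeR, adjusted p under 0.1), which called 2.97% of all genes. Subtracting the log2 effect in F/M from that in Cb gave −1.57 for *Gabra5*, −1.42 for *Grm5*, −1.39 for *Gabrg3*, −0.69 for *Grin2d*, −0.57 for *Gabrg1* and −0.45 for *Gabra3*. For *Grin2d* and *Gabrg1* the mean of *Tpp1*-/- was above that of controls in F/M and below it in Cb. *Gabra3* kept its call in 12 of 24 fits, the one reported included, and none of the 6 was called with either marker score as a covariate.

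The effect in Cb differed between ages for 4 members, where 1.28% of all genes were called from 1 to 2 months, and 1.3% toward higher and 0.131% toward lower values from 2 to 3 months. Between 1 and 2 months it moved by −1.31 for *Grm5*, −1.69 for *Gabra5* and −1.18 for *Gabrg3*. Between 2 and 3 months it moved by 1.39, 1.46 and 0.98 for the same genes and by −0.81 for *Grm2*, whose effect at 3 months was also −0.96 relative to 1 month. Without control replicate 3 of the 3-month Cb, *Grm5* alone kept its call from 2 to 3 months. The midbrain and thalamus score of the 2-month *Tpp1*-/- Cb libraries, the lowest of all Cb libraries, moved with the first 3 genes, and its part was not tested across ages.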

How the results depend on the processing

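The 3-month region differences of the 12 members described library by library for their region difference kept their direction under every alternative run, and all but those of *Gabbr1* and *Gabbr2* kept an adjusted p under 0.1. These counts moved by over 1.5 times. With the midbrain and thalamus score as covariate, the 2-month calls numbered 1 (F/M), 0 (Cb) and 0 (interaction), against 0.621%, 0.0755% and 0.0406% of all genes in the same fit. With the cortex and striatum score they were 0 for that interaction (0.0348% of all genes in the same fit), 4 in Cb at 1 month (7.13%), 7 in Cb at 3 months (7.48%) and 1 for the 3-month interaction (0.122%). At 2 months the midbrain and thalamus score did not overlap between genotypes in either region, nor did the cortex and striatum score in F/M. In Cb the cortex and striatum score did not overlap at 1 month (0.647 to 0.777 in controls, 0.834 to 1.06 in *Tpp1*-/-) or at 3 months. In these fits score and genotype could not be told apart. With no filter on low counts, 1 member was called in Cb at 1 month (0.245% of all genes) and 1 for the interaction at 3 months (0.233%). With no fold minimum 5 were called in Cb at 2 months (3.08%), and in a fit to 6 libraries 0 in Cb at 3 months (0.282%). Values that reversed did so with a covariate. With the midbrain score *Gabra3* was 0.54 in Cb, and the interaction was 0.35 for *Gabra3* and 0.84 for *Gabrg1*. With the cortex score the interaction was 0.0794 for *Gabra3* and 0.12 for *Gabrg3*. The cause was not tested. Leaving out 1 library gave 0 to 1 calls in Cb at 1 month (1 without *Tpp1*-/- replicate 3), 1 to 4 for the change from 2 to 3 months (1 without control replicate 3 of 3 months, 2 without control or *Tpp1*-/- replicate 3 of 2 months) and 1 to 4 from 1 to 3 months (4 without *Tpp1*-/- replicate 1 of 3 months). Without division by length, shares at 3 months were 28.6% for *Gria1*, 71.8% for *Grin2b* and 35.8% for *Grik5* in F/M, and 33.4% for *Gria4*, 61.8% for *Grin2c* and 18.3% for *Grik5* in Cb.

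Same-numbered control and *Tpp1*-/- libraries correlated by −0.085 to 0.229 in their deviations. At 1 month the values were 0.214, 0.066 and 0.124 in F/M and 0.186, −0.085 and 0.229 in Cb. Such libraries also share their sex at each age, so these values do not settle whether the numbers pair them. Same-numbered F/M and Cb libraries correlated by over 0.1 in 5 of 6 pairs at 1 month (0.095 to 0.198) and in 0 of 12 at the later ages. Their labels match in sex, and the heterozygous control of 1 month is replicate 3 in both regions. Whether the same mouse gave both regions is not settled by these values. With the replicate block, calls were 0 and 0 (F/M and Cb) at 1 month, 0 and 3 at 2 months, 0 and 1 at 3 months and 6 for the 2-month interaction, and with a block for a mouse shared by both regions 5, without *Gabra3*, while the region counts stayed at 24, 22 and 23. Depth limits *Gabra5* in Cb most, with as few as 16 counts in a library.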

Other observations

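In 3 of the libraries that stood apart over the 31 genes, the members that were low tended to be those with long exons. The correlation across members between exon length and the deviation from the other 2 replicates (Pearson, 31 genes of the same library, not independent) was −0.57 for *Tpp1*-/- replicate 1 of the 3-month Cb, −0.47 for *Tpp1*-/- replicate 1 of the 1-month Cb and −0.59 for control replicate 2 of the 2-month F/M. Over all 36 libraries it ran from −0.59 to 0.62, was over 0.5 in 4, and was −0.48 in control replicate 2 of the 3-month F/M, which did not stand apart. *Gabrb2* and *Grin2b* were the lowest members in each of the first 3, at −1.74 and −1.39, −1.17 and −0.98, and −0.93 and −0.64 on the log2 scale. *Grin2b* has 24842 bases of exon, the most of the 31, but *Gabrb2* has 6360 and is not among the long ones. In control replicate 3 of the 3-month Cb the members that were low were *Gabra5* (−1.12), *Grm5* (−0.96), *Gabrg1* (−0.91), *Gabrg3* (−0.80) and *Gabra3* (−0.77), and *Grm4* was 0.61 higher.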
